A study of Mus musculus with 18 samples.

Results

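Cartilage of contralateral knees, taken 1 day after the opposite knee had been injured, was compared with cartilage of naïve knees. The comparison used 9 of the 18 RNA-seq libraries of the series, chosen by their treatment labels alone: 3 of the left knee at day 1 and 6 of naïve mice. All mice were C57bl6 by the labels, and the study's methods describe C57Bl/6J males of 12 weeks. On the injured mice a single load under isoflurane ruptured the anterior cruciate ligament (ACL) of the right leg, and buprenorphine was given at the start, so that the left knee was never loaded but belonged to an anaesthetised, treated and injured animal. The naïve mice carry a day 7 label and had no rupture. Whether they had anaesthesia or analgesia is not given in the sources used here. Any effects of the procedure, of time of collection and of injury at a distance cannot be told apart in this comparison. A further 3 day 1 injured libraries and 3 day 7 injured libraries entered the fit to estimate the spread, and the 3 day 7 contralateral libraries served for comparison only.

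Each library was a pool of femoral condyle cartilage caps. The submitters' description states 4 mice per sample, whereas the study's schematic shows another pooling, in which left and right knees of naïve mice were kept apart. By the methods there were 6 naïve mice and 6 injured mice killed at day 1, too few for 4 separate mice per library, so that the 6 naïve libraries must share mice or hold fewer of them. The labels name neither mouse nor knee. All libraries were treated as independent, which can make the errors too small, and the p-values measure only the spread between these pools.

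The contralateral knee is the usual internal control in models of unilateral joint injury, because it shares genotype, cage and handling with the injured knee. It is known to carry extra load when an animal favours the injured leg, and it is reached by circulating cytokines and stress hormones. Articular cartilage is built by chondrocytes, which secrete type II collagen and aggrecan, whereas type I collagen is made mainly by bone, tendon, ligament and fibrous tissue. The question was whether day 1 contralateral cartilage could be told from naïve cartilage, gene by gene and pathway by pathway.

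Total estimated counts were 25016972, 25344942 and 41794005 in the contralateral libraries, and they lay between 16074762 and 29407822 in the naïve libraries. The 10 genes with the highest counts took 18.1%, 20.2% and 20.7% of the counts of the contralateral libraries and from 19.6% to 25.9% in the naïve libraries. Pseudogenes took 3.32%, 4.74% and 5.11% against 4.53% to 7.74%. These shares had the lowest p-values among the 8 library measures that were compared (2-sided exact permutation p = 0.0714 for each, adjusted p = 0.286, smallest possible p = 0.0119), and their part in the results below was not tested. Without naïve library 5, which had the lowest share of the naïve libraries, the difference in the share of the 10 highest genes was -3.62 percentage points. The exact permutation p was 0.0179, the smallest that this test can give with a library left out. It was not adjusted, and each library was left out in turn for each measure. No pair among all 18 libraries agreed within sampling noise, so none was counted as a duplicate.

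The cartilage identity of the libraries was checked against marker genes. All 10 chondrocyte markers were tested, and Col2a1, which encodes the main collagen of cartilage, stood at 2610.5, 2450.4 and 2562 counts scaled to library size (CPM, defined with the processing) in contralateral libraries. RNA of other tissues was present in every library. Hbb-bs, an adult β-globin of red blood cells, stood at 16941, 12425 and 16885 CPM in contralateral libraries and between 12980.0 and 16000.0 CPM in naïve libraries. S100a8, an alarmin of neutrophils and marrow myeloid cells, stood at 2512, 2915 and 2178 CPM against 2019 to 3485 CPM. Ttn, the giant spring protein of striated muscle, stood at 3992, 3025 and 2046 CPM against 2086 to 5589 CPM. In contralateral libraries, the summed erythroid markers took 38604, 31329.9 and 41769 CPM, neutrophil and marrow myeloid markers 14479, 17312 and 13797 CPM, skeletal muscle markers 16357, 11734 and 8314 CPM and chondrocyte markers 4161, 3866 and 3926 CPM of the counts, which are shares of reads and not levels per transcript length. The libraries thus held much blood, marrow and muscle RNA beside that of chondrocytes, and the ranges of Hbb-bs, S100a8 and Ttn in the groups overlapped. Of 7 epidermal markers, 6 were at or under 3 counts in all 9 libraries. In such bulk samples, fewer cells of a type and less RNA per cell cannot be told apart.

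Some libraries stood apart from the others of their own group. In a principal component analysis of the 9 libraries, 28.9% of the variance lay on the first component and 19.0% on the second. Contralateral library 3 and naïve library 5 had scores of 23.7 and 28.1 on the first component, whereas the other libraries lay between -12.1 and 3.88. On the second component, contralateral library 2 and naïve library 6 had the highest scores, 16.7 and 21.1, and naïve library 4 followed at 7.40. Neither component separated the groups: mean scores were 3.44 ± 17.8 (SD, n = 3) in contralateral and -1.72 ± 15.8 (SD, n = 6) in naïve libraries on the first, and -2.14 ± 16.3 and 1.07 ± 12.0 on the second. The exact permutation p was 0.690 for the first and 0.726 for the second component, and no component of the 8 had a p below 0.107. Group labels were taken as given, and whether any library was mislabelled was not tested. Each of contralateral 3, naïve 5 and injured 2 was closer to the other members of this trio than to any library of its own group, with a chi-square per degree of freedom over genes of 19.2 to 21.9 within the trio, at least 44.0 between contralateral 3 and its group, at least 29.7 between naïve 5 and its group and at least 43.2 between injured 2 and its group. Nearness to another group was not limited to these libraries: naïve 6 was nearest to day 7 contralateral 3 (15.9, against at least 28.6 within its group), day 1 injured 1 to naïve 4 (20.2, against at least 43.2) and contralateral 2 to naïve 6 (21.7, against at least 27.1). This measure also grows with depth.

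**Figure D1:**
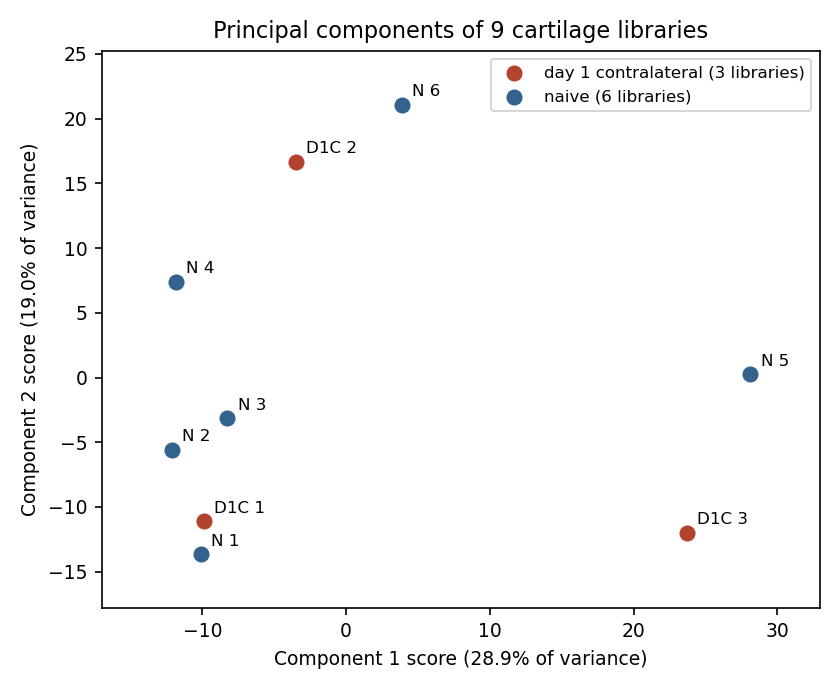
Scores of the 3 day 1 contralateral (D1C, red) and 6 naïve (N, blue) libraries on the first and second principal components of variance-stabilized counts, with the share of variance on each axis. D1C 3 and N 5 lie together at 23.7 and 28.1 on the first component, and D1C 2 and N 6 lie highest on the second.

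No gene passed the test between day 1 contralateral and naïve cartilage. Among 21129 genes tested with the quasi-likelihood test of edgeR, 0 (0%) were called at an FDR of 0.05 and a ≥1.5-fold change in either direction, with a lowest FDR of 0.99975. The lowest FDR was 0.0840 without contralateral library 2 and 0.184 without contralateral library 2 and naïve library 6, again with 0 calls. There were 554 genes (2.62%) at an unadjusted p of 0.05, of which 202 (0.956%) had higher and 352 (1.67%) had lower mean expression in contralateral cartilage. The DESeq2 Wald test called 1 gene in each direction. These were Gm16299, with a log2 fold change of -1.21 and an FDR of 0.0464, and Gm47893, with an FDR of 0.0323, which had 0.0363 CPM in 1 contralateral library and 0 in the other contralateral and all naïve libraries. Limma-voom called none, with 642 genes at an unadjusted p of 0.05. The median log2 fold change over all genes tested was -0.00109, and 10646 genes (50.4%) were below 0.

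With all libraries treated as independent, the comparison had the precision to bound many genes. Where libraries share mice, the intervals can be too narrow and the counts of bounded genes too high. The 95% interval of the fold change lay wholly inside a 1.5-fold change in either direction for 12201 genes (57.7%), and inside a 2-fold change for 17231 genes (81.6%). Among the 16142 genes with a mean of at least 1 CPM, these were 12111 genes (75.0%) and 15193 genes (94.1%). For the remaining genes the interval reached beyond that size, so that a change as large was not bounded by these libraries. All 3 contralateral libraries lay above all 6 naïve libraries for 144 genes (0.682%) and below all of them for 148 genes (0.7%).

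**Figure D2:**
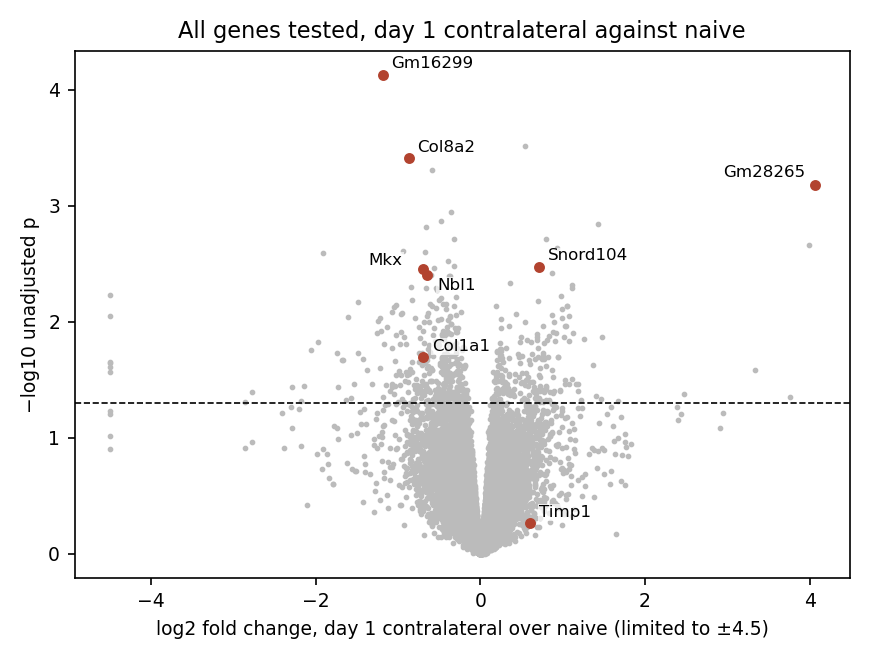
Log2 fold change (x axis, limited to ±4.5) against −log10 of the unadjusted edgeR quasi-likelihood p (y axis) for each gene symbol tested. Red marks genes of the text, and a dashed line marks a p of 0.05. No FDR was below 0.99975, and Gm28265, far to the right, was high in a single contralateral library.

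The genes with the lowest p-values among those expressed at 1 CPM or more and ≥1.5-fold apart were taken in each direction, and none of them passed the test. Of the 10 with lower mean expression in contralateral cartilage 8 were protein-coding, and of the 10 with higher mean expression 0 were. Most genes tested are protein-coding: 16096 were tested when only these were used, beside 21129 of all types. Gm16299, an antisense transcript on chromosome 19, had the lowest p of all genes. It stood at 0.725, 1.20 and 0.597 CPM in contralateral libraries, against a lowest value of 1.67, a median of 1.79 and a highest value of 2.497 CPM in naïve libraries. The groups did not overlap, and the log2 fold change was -1.19 ± 0.22 (SE, unadjusted p = 7.44e-05). Its estimate lay between -1.54 and -0.97 when libraries were left out. Col8a2, which encodes a short-chain collagen of basement membranes, stood at 11.1, 9.82 and 9.15 CPM against 15.6, 16.5 and 26.7 CPM (lowest, median and highest naïve library). Every contralateral library lay below every naïve library, and the log2 fold change was -0.87 ± 0.19 (SE, unadjusted p = 0.000389), or 1.83 times lower on average with a 95% interval of the ratio from 0.412 to 0.726. Leaving out naïve library 4, the highest, gave -0.73.

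Other protein-coding genes of this group were also separate between the groups. Mkx, which encodes the tendon transcription factor Mohawk, stood at 3.12, 2.40 and 2.17 CPM against 3.16, 3.61 and 6.23 CPM, with a log2 fold change of -0.70 ± 0.20. Nbl1, which encodes a secreted antagonist of bone morphogenetic proteins, stood at 24.5, 26.5 and 26.0 CPM against 30.6, 38.0 and 53.4 CPM, with a log2 fold change of -0.65 ± 0.19. The kinase genes Stk32c and Pak3 had log2 fold changes of -0.66 and -0.59, and the acyl-CoA thioesterase gene Acot1 had -0.66. Their unadjusted p-values ranged from 0.00153 for Stk32c to 0.00513 for Acot1.

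In the upward direction, Gm28265, a long noncoding RNA, had the lowest p, and it rested on 1 library. It stood at 32.0 CPM in contralateral library 2 and at 0.798 and 0.597 CPM in the others, against 0.320 to 1.65 CPM in naïve libraries. Its log2 fold change of 4.06 ± 0.95 was 0.02 when contralateral library 2 and naïve library 6 were left out. Snord104, a small nucleolar RNA that guides chemical modification of ribosomal RNA, stood at 1.27, 1.72 and 1.505 CPM against 0.712, 0.947 and 1.01 CPM, without overlap (log2 fold change 0.71 ± 0.21). Snora44, another small nucleolar RNA, stood at 1.92, 2.17 and 4.08 CPM against 0.857, 1.43 and 1.85 CPM (1.01 ± 0.36). Without contralateral library 3 and naïve library 5 its estimate was 0.48. Gm4332, a processed pseudogene whose reads may also fit its parent gene, stood at 59.2, 48.5 and 61.2 CPM against 23.6, 34.0 and 47.2 CPM (0.69 ± 0.24). Expression of these short and repeated transcripts is uncertain, since the estimated counts share out reads that fit several transcripts.

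Connective tissue collagens and their crosslinking enzymes had lower mean expression in contralateral cartilage as a group, although no member passed the test. All 22 members were tested, 0 were called, and 22 had a log2 fold change below 0, with a median of -0.41 beside -0.00109 over all genes. At an unadjusted p of 0.05, 11 of 22 were lower and 0 higher, beside 1.67% lower over all genes, and 5 (Col1a1, Col1a2, Col15a1, Col16a1 and Loxl2) were below every naïve library, beside 0.7%. Col1a1, which encodes the α1 chain of type I collagen, stood at 7149.8, 8242 and 8048 CPM in contralateral libraries and at 8766, 12204 and 16944 CPM (lowest, median and highest) in naïve libraries. Its log2 fold change was -0.69 ± 0.27 (SE, unadjusted p = 0.0202). Col1a2, its partner chain, stood at 4528, 4868 and 4568 CPM against 5135, 7631 and 9789 CPM, with a log2 fold change of -0.70 ± 0.25. The contralateral libraries were close together for both genes, naïve libraries 1, 4 and 5 lay close above them, and naïve libraries 2, 3 and 6 lay farther above.

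The summed expression of the 22 genes was 14829, 16546 and 18167 CPM in contralateral libraries and lay between 18822 and 31253 CPM in naïve libraries. These sums did not overlap, but those of the 20 genes other than Col1a1 and Col1a2, 3151, 3436 and 5551 CPM against 4053 to 6554 CPM, did. The group was described again without the libraries that stood apart. Without contralateral library 3 and naïve library 5, the median was -0.53, with 17 of 22 lower at an unadjusted p of 0.05. Without contralateral library 2 and naïve library 6 it was -0.34, with 7 lower and 2 members above 0. Without contralateral library 1 it was -0.24, with 3 lower, and without contralateral library 3 it was -0.60. The count lower at an unadjusted p thus moved with single libraries, and it ranged from 3 to 18 over the 20 alternatives. In day 1 injured libraries, which share the contralateral libraries and the naïve libraries as their controls, Col1a1 had a log2 difference of 0.89 from contralateral and 0.20 from naïve cartilage (FDR = 0.755 and 0.988, edgeR).

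Most markers of tendon and bone also lay below 0. All 9 tendon and ligament markers were tested and 9 were below 0, with a median of -0.63. Of these, 5 were lower at an unadjusted p of 0.05 (beside 1.67% of all genes) and the same 5 were below every naïve library (beside 0.7%): Col1a1, Fmod, Kera, Tnmd and Mkx, of which Fmod and Kera are named after their values were seen. The count was 3 without contralateral library 3 and 6 without naïve library 6. Tnmd, which encodes tenomodulin, a membrane protein of tendon cells, stood at 3.23, 3.79 and 2.46 CPM against 4.19, 5.59 and 13.5 CPM (log2 fold change -1.18 ± 0.43). Fmod, which encodes the collagen-binding proteoglycan fibromodulin, stood at 194, 204 and 179 CPM against 206, 297 and 418 CPM (-0.63 ± 0.23). Kera, which encodes the related proteoglycan keratocan, stood at 5.62, 5.92 and 4.66 CPM against 7.04, 8.33 and 20.9 CPM (-0.98 ± 0.36). Without Col1a1, the other 8 tendon markers summed to 887, 808 and 1050.4 CPM in contralateral and 956 to 1385 CPM in naïve libraries, so that these sums overlapped.

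Among 12 osteoblast and osteocyte markers, 11 were below 0 (median -0.28), and 3 were lower at an unadjusted p of 0.05 (beside 1.67% of all genes). The median was -0.39 without contralateral library 2 and -0.19 without contralateral library 3, and the count was 1 without contralateral library 1 and 5 without naïve library 4. Bglap2, which encodes the bone protein osteocalcin, stood at 47.6, 53.7 and 44.8 CPM against 50.0, 74.6 and 113 CPM (-0.74 ± 0.32). Bglap2 has a close copy, Bglap, with which it can share reads. Col1a1 and Col1a2, given above with the collagens, are among the 12 markers. Of the 10 osteoblast markers other than these, 1 was lower at an unadjusted p of 0.05. The summed levels of these 10, 533, 596 and 470.0 CPM, overlapped those of naïve libraries, 517 to 780 CPM. How far a different amount of tendon, ligament or bone in the dissected caps bore on the collagen values was not tested.

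Cartilage matrix genes had a similar median. All 27 were tested, 0 were called and 26 were below 0, with a median of -0.39. At an unadjusted p of 0.05, 9 were lower (beside 1.67% of all genes), and 4 were below every naïve library (beside 0.7%). The summed expression of the 27 genes was 9171, 8646 and 11115 CPM in contralateral and 8505 to 14830 CPM in naïve libraries, so that these sums overlapped. Col2a1 itself stood in contralateral libraries at the values given above, against 2632, 3038 and 5053 CPM in naïve libraries. The groups did not overlap, but the unadjusted p was above 0.05 (log2 fold change -0.37 ± 0.20, unadjusted p = 0.0827). Comp, which encodes a pentameric protein of cartilage and tendon matrix, stood at 365, 305 and 287 CPM against 302, 447 and 563 CPM (-0.46 ± 0.21). Cilp2, which encodes a protein of the intermediate layer of cartilage, stood at 40.2, 41.9 and 16.1 CPM against 25.1, 67.8 and 86.9 CPM (-0.94 ± 0.45).

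Prg4, which encodes the joint lubricant lubricin, was the only cartilage matrix gene above 0 (0.26 ± 0.43). It stood at 593, 575 and 1685 CPM in contralateral libraries and at 379, 726 and 1445 CPM in naïve libraries, and its highest values in each group were those of contralateral library 3 and naïve library 5. Without this pair its estimate was -0.18. The cartilage list without them had a median of -0.40, with 27 of 27 below 0 and 3 lower at an unadjusted p of 0.05. Without naïve library 3, which had the highest Col2a1, the median was -0.27 and 2 were lower, and without contralateral library 3 none was. The 10 chondrocyte markers, which overlap this list, were all below 0 (median -0.36, or -0.22 without naïve library 3), and the 19 chondrocyte transcription factors had a median of -0.10 with none at an unadjusted p of 0.05.

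**Figure D3:**
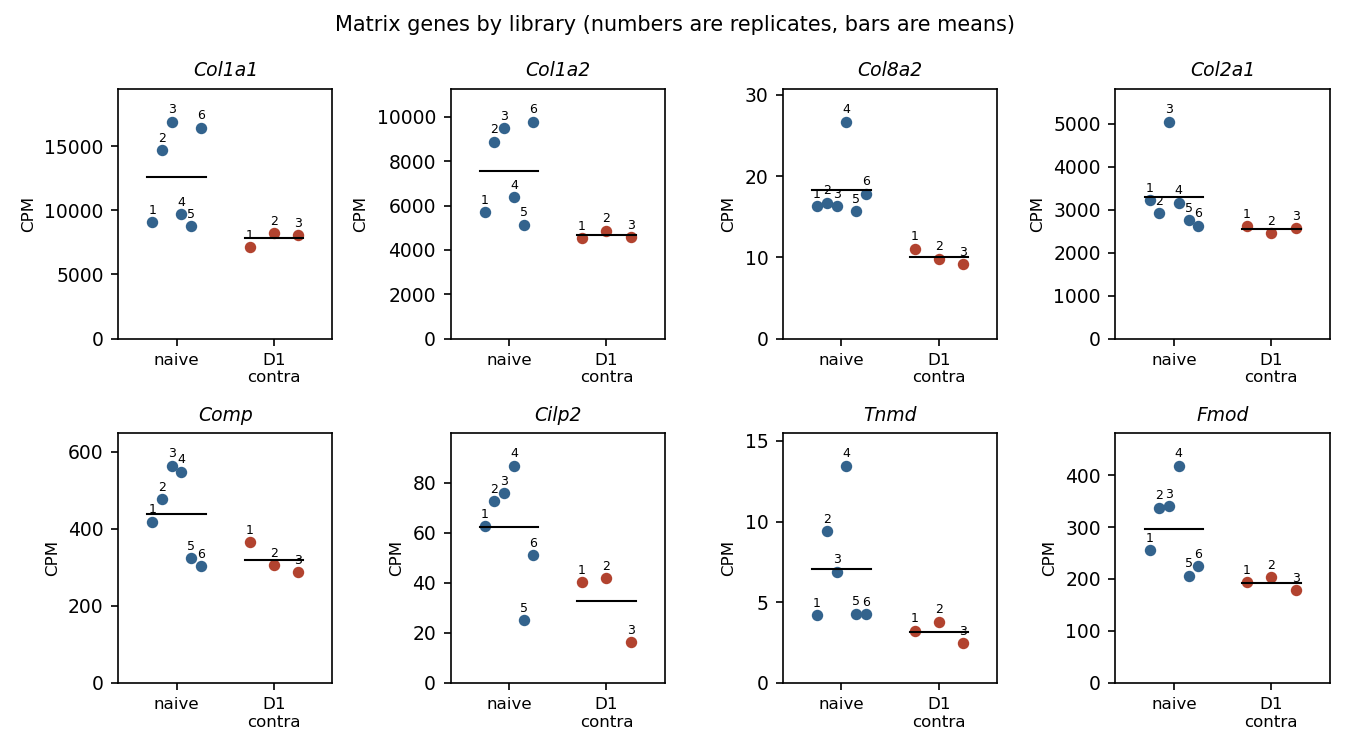
Expression in CPM (y axis, from 0) of 8 matrix genes in 6 naïve (blue) and 3 day 1 contralateral (D1 contra, red) libraries, where numbers give the replicate and bars the mean. Contralateral values lie below every naïve value for Col1a1, Col1a2, Col8a2, Col2a1, Tnmd and Fmod and overlap them for Comp and Cilp2.

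Metalloproteinases and their inhibitors had a median nearer to 0 than that of cartilage matrix genes. Of 31 metalloproteinases and inhibitors, 30 were tested, 0 were called and 20 were below 0 (median -0.18, or -0.29 without contralateral library 3). Mmp2, which encodes a gelatinase of fibroblasts, stood at 83.9, 88.5 and 98.8 CPM against 102.5, 133 and 145 CPM, without overlap (log2 fold change -0.48 ± 0.16). Mmp9, the gelatinase of neutrophils and osteoclasts, stood at 684, 732 and 704 CPM against 616, 796 and 886 CPM (-0.13 ± 0.14). The highest estimate of this list was that of Timp1, described next.

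Genes of acute inflammation did not separate the groups, and the sign of their median depended on a single library. Of 35 listed genes of acute inflammation, 33 were tested, 0 were called, and 25 were above 0, with a median log2 fold change of 0.16 and none at an unadjusted p of 0.05. Their summed expression was 2193, 2368 and 2841 CPM in contralateral libraries and 2191 to 2596 CPM in naïve libraries. The median rested on contralateral library 3: without it, 28 of 33 were below 0 and the median was -0.34. Without contralateral library 3 and naïve library 5, 28 of 32 were below 0 and the median was -0.14. Without naïve library 5 alone the median was 0.31, and 7 genes were higher at an unadjusted p of 0.05.

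Timp1, which encodes a secreted inhibitor of metalloproteinases that is induced by cytokines, stood at 95.9 CPM in contralateral library 3 and at 5.33 and 8.21 CPM in contralateral libraries 1 and 2. In naïve library 5 it stood at 96.5 CPM and in the other naïve libraries between 5.99 and 12.1 CPM. Among day 1 injured libraries it stood at 89.5 CPM in library 2 and at 15.6 and 8.81 CPM in libraries 1 and 3. Each group of the day 1 comparisons thus held a single library near 90 CPM or above. The log2 fold change between contralateral and naïve cartilage was 0.61 ± 0.97, with a 95% interval from -1.47 to 2.68.

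Ccl7, a chemokine that attracts monocytes, stood at 18.8, 27.6 and 17.7 CPM in the same 3 libraries (contralateral 3, naïve 5 and injured 2) and at no more than 1.81 CPM in the other contralateral and naïve libraries. Chl1, a neural cell adhesion gene, stood at 56.0, 46.6 and 48.5 CPM and elsewhere in those groups between 2.77 and 7.37 CPM. The log2 fold change between contralateral and naïve cartilage was 0.29 ± 1.22 for Ccl7 and 0.77 ± 0.95 for Chl1, and both were negative (-0.65 and -0.79) without contralateral library 3 and naïve library 5.

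Il11, which encodes a cytokine of injured stromal cells, stood at 7.71 CPM in contralateral library 3, 3.27 CPM in naïve library 5 and 5.64 CPM in injured library 2, and at most at 0.549 CPM in the other contralateral and naïve libraries. Mt2, a metallothionein induced by metals and glucocorticoids, stood at 85.5, 68.8 and 69.4 CPM in these libraries. Fosl1, an AP-1 transcription factor gene, stood at 1.05, 1.27 and 1.30 CPM, and at 0 CPM in 1 contralateral and 3 naïve libraries. Ankrd1, a target of the mechanosensitive YAP pathway, was also highest in contralateral library 3 (17.8 CPM) and naïve library 5 (10.3 CPM), although injured library 1 reached 9.96 CPM. These genes were named because they lead the first component or a list, and their values describe these libraries and are no test of a group.

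The opposite end of the first component was led by Myh2, Cyp2e1, Pck1, Ces1d and the histone gene Hist2h2aa2, whose values are given with the other histones. Myh2, a fast myosin heavy chain, stood at 163, 139 and 27.4 CPM in contralateral libraries, the lowest in library 3, and at 52.0 CPM in naïve library 5. Cyp2e1, a cytochrome P450 enzyme, stood at 5.06 CPM in contralateral library 3 and 9.80 CPM in naïve library 5, while the other libraries of these groups lay between 43.4 and 113 CPM. Pck1, which encodes a gluconeogenic and adipose enzyme, stood at 5.61 and 5.14 CPM in this pair, and Ces1d, a carboxylesterase of fat and liver, at 2.27 and 3.31 CPM. The summed adipocyte markers were 431 and 428 CPM in this pair and 599 to 1207 CPM in the other libraries, and the summed skeletal muscle markers were 8314 and 6482 CPM and 9004 to 19864 CPM. Of the 10 adipocyte markers, 10 were below 0 between the groups (median -0.33), and of 18 muscle markers 12 were (median -0.14), none of either list at an unadjusted p of 0.05. The medians were -0.12 for adipocyte and 0.11 for muscle markers without contralateral library 3, while without contralateral library 1 that of muscle markers was -0.36. For adipocyte markers it was -0.58 without contralateral library 2, -0.625 without contralateral library 2 and naïve library 6, and -0.14 without naïve library 4. The part that tissue composition had in the first component was not tested.

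Interferon-induced genes varied along the second component and did not follow the groups either. Type I interferons act through a receptor that activates a complex of transcription factors, which binds interferon-stimulated response elements near the start of its target genes. The promoters of genes leading this component were read from RefSeq (GRCm38.p6, 250 bases before to 50 after the start) for 4 of the 5 leading genes, and 3 of the 4 hold the letters GAAANNGAAA on either strand, which resemble that element, against 3.99% of 27025 genes with a promoter in the table (3.44% of 32851 promoters of the same length). Among the genes of interferon response and antigen presentation, 8 of 17 with a promoter in the table hold it (47.1%). They are shown because these genes have the largest loadings on the component: Ifit1 (chr19:34640639-34640938, plus strand), Ifit3 (chr19:34583279-34583578, plus strand) and Tgtp2 (chr11:49064163-49064462, minus strand), with the matches in capitals, which read TTTCNNTTTC on the other strand.
Ifit1: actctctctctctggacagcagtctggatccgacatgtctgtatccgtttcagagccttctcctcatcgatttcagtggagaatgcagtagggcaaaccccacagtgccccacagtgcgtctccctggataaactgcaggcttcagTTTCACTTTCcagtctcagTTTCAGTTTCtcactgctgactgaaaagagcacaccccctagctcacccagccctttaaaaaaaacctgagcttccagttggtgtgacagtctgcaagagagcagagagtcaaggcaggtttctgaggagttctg
Ifit3: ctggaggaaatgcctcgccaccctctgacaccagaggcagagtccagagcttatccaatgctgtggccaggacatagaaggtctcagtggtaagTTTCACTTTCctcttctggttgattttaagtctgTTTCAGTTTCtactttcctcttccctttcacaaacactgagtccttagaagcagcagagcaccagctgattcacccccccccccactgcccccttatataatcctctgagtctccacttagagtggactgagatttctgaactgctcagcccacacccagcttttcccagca
Tgtp2: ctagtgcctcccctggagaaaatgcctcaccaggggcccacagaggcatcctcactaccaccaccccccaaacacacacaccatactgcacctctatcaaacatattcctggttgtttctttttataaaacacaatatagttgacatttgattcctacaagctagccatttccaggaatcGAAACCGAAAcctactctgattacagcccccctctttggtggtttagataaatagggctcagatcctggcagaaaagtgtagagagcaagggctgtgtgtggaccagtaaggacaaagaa

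Ifit1, which encodes a protein that binds foreign RNA lacking a host cap, holds 2 matches in its promoter. It stood at 94.7 CPM in contralateral library 2 and at 9.61 and 12.1 CPM in the other contralateral libraries. In naïve libraries it ranged from 7.79 over a median of 38.0 to 102 CPM, with the highest value in library 6, and in day 1 injured libraries it stood at 68.8, 8.43 and 8.77 CPM. The log2 fold change between contralateral and naïve cartilage was -0.28 ± 0.84. Ifit3, a partner of Ifit1, also holds 2 matches. It stood at 6.93, 65.9 and 8.10 CPM in contralateral libraries and from 7.34 to 70.4 CPM in naïve libraries (-0.41 ± 0.88). Tgtp2, an interferon-inducible GTPase gene with 1 match, stood at 13.9, 141 and 14.2 CPM against 12.8 to 143 CPM, and Ifi44, whose promoter holds no match, stood at 2.43, 34.3 and 2.48 CPM against 2.05 to 39.9 CPM. In each case contralateral library 2 alone was high in its group, and the ranges of the groups overlapped.

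Of the 25 genes of interferon response and antigen presentation, 25 were tested, 0 were called and 16 were below 0, with a median of -0.10 and none at an unadjusted p of 0.05. Without contralateral library 2 the median was -0.88, and 10 genes were lower at an unadjusted p of 0.05. Without contralateral library 1 it was 0.22, with 23 genes above 0. The direction of this list thus changed with single libraries. Usp18, which encodes an inhibitor of interferon signalling and had the lowest estimate (-0.45 ± 0.71), stood at 8.45, 44.4 and 7.64 CPM against 7.09 to 53.8 CPM. H2-Ab1, an MHC class II gene, had the highest estimate (0.21 ± 0.21).

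**Figure D4:**
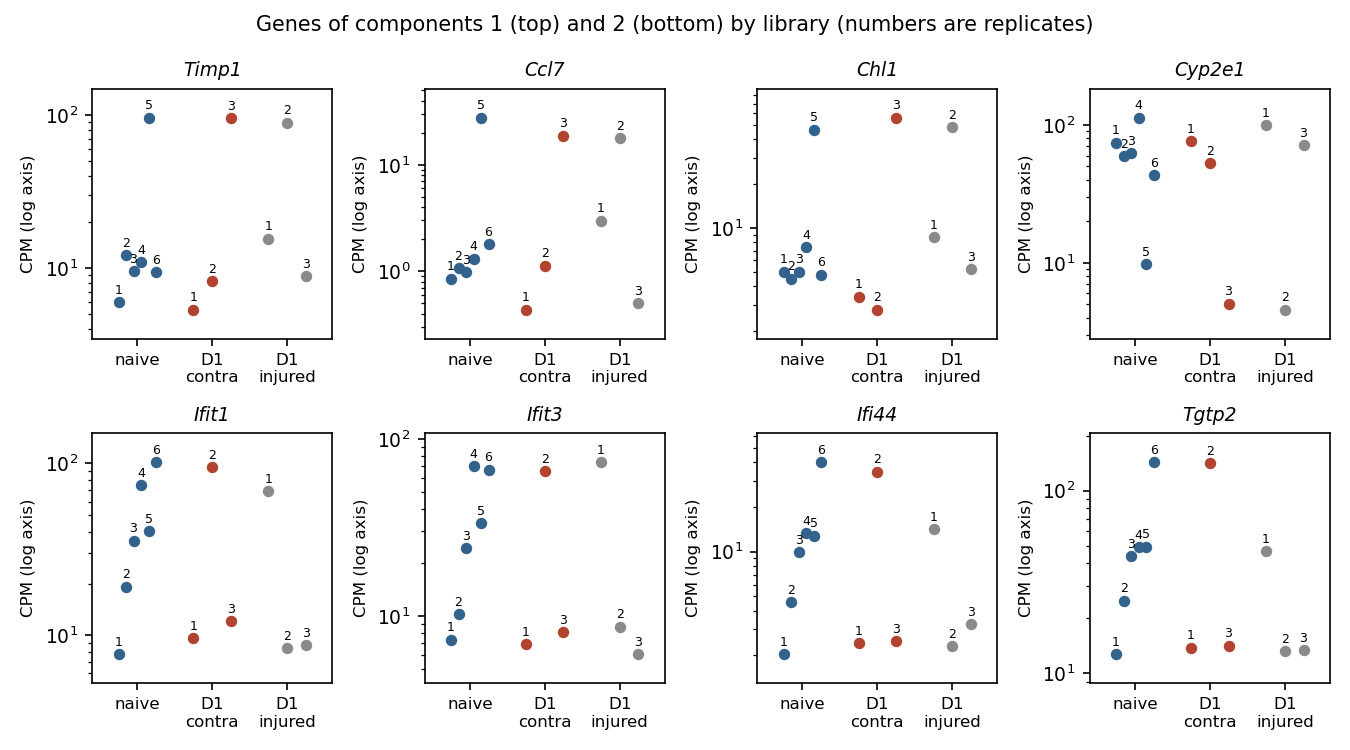
Expression in CPM (log axis) of 4 genes leading either end of the first component (top) and 4 interferon-induced genes leading the second (bottom) in naïve (blue), day 1 contralateral (red) and day 1 injured (grey) libraries, numbered by replicate. In the top row naïve 5, contralateral 3 and injured 2 stand above the rest for Timp1, Ccl7 and Chl1 and below them for Cyp2e1, and in the bottom row contralateral 2 and injured 1 are the highest of their groups while the naïve libraries spread widely.

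Lists of hormone response, handling, stress and time of day had medians near 0 that moved with single libraries. The median was -0.21 for glucocorticoid-responsive and -0.23 for immediate early genes without contralateral library 3, and that of circadian clock genes was -0.27 without contralateral library 1 and 0.07 without contralateral library 2. Of 21 glucocorticoid-responsive genes, 17 were below 0 (median -0.07, none at an unadjusted p of 0.05), and the highest estimate was that of Mt2 (0.76 ± 0.80), whose estimate was -1.24 without contralateral library 3. Zbtb16, a transcription factor gene induced by glucocorticoids, stood at 26.3, 22.1 and 14.9 CPM against 17.1, 27.7 and 33.4 CPM (-0.31 ± 0.27). Of 22 circadian clock genes, 17 were below 0 (median -0.05), none at an unadjusted p of 0.05, and for 21 of 22 the 95% interval lay inside a 2-fold change. Of 31 immediate early genes, 30 were tested and 19 were below 0 (median -0.06). Of these, 2 were lower at an unadjusted p of 0.05 (beside 1.67% of all genes), among them Ccn2, a matricellular target of TGF-β and YAP signalling (137, 128 and 159 CPM against 129, 179 and 206 CPM, log2 fold change -0.33 ± 0.15). Between 0 and 4 immediate early genes were lower at an unadjusted p of 0.05 over the 20 alternatives. Egr2, a growth factor-induced zinc finger gene, had -0.39 ± 0.23. Of 27 genes of protein folding stress, 18 were below 0 (median -0.08). Hspa1b, an inducible heat shock protein with a near-identical copy, stood at 6.09, 6.93 and 6.07 CPM against 6.93, 8.63 and 20.5 CPM (-0.86 ± 0.36).

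Signalling lists had medians between those of the collagen lists and 0. Of 36 Wnt signalling genes, 31 were below 0 (median -0.22, 2 lower at an unadjusted p of 0.05 beside 1.67% of all genes). This median was -0.31 with 5 lower without contralateral library 1, and 5 were lower without naïve library 6. It was -0.15 without contralateral library 2 and naïve library 6. Dkk2, a Wnt antagonist, stood at 3.44, 3.37 and 1.65 CPM against 3.18, 3.73 and 6.69 CPM (-0.57 ± 0.37). Of 34 TGF-β and BMP genes, 24 were below 0 (median -0.12), with Gdf5, a joint-forming growth factor, at -0.74 ± 0.44 and at most 0.570 CPM. Of 22 mechanosensing genes, 16 were below 0 (median -0.05, 3 lower at an unadjusted p of 0.05 beside 1.67% of all genes, 5 without contralateral library 3 and 0 without contralateral library 2). Of 22 genes of neurotrophins and joint pain, 15 passed the filter on low counts and 9 were below 0 (median -0.07). Without contralateral library 3 the median moved to -0.30 for mechanosensing and -0.36 for neurotrophin and pain genes. That of TGF-β and BMP genes was -0.23 without contralateral library 3, naïve library 5 and injured library 2.

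Housekeeping and growth lists had medians close to 0. Proliferation genes were above 0 in 24 of 25 cases with a median of only 0.08, none at an unadjusted p of 0.05, and all 25 had a 95% interval inside a 2-fold change. Their median ranged from 0.06 to 0.14 over the 20 alternatives, with at most 1 gene higher at an unadjusted p of 0.05. Mki67, the marker of cycling cells, stood at 1753, 1626 and 1635 CPM against 1358, 1547 and 1718 CPM (0.12 ± 0.11). The median was -0.01 over 84 cytosolic ribosomal proteins, -0.02 over 89 nuclear genes of oxidative phosphorylation, 0.01 over 24 mitochondrially encoded genes, -0.04 over 25 genes of hypoxia and glycolysis, 0.07 over 20 metallothioneins and antioxidant genes and -0.02 over 18 p53 targets and cell-cycle inhibitors. Over the 20 alternatives the median ranged from -0.20 to 0.14 for mitochondrially encoded genes and from -0.08 to 0.12 for metallothioneins and antioxidant genes. It ranged from -0.05 to 0.04 for ribosomal proteins, -0.06 to 0.02 for oxidative phosphorylation, -0.07 to 0.004 for hypoxia and glycolysis and -0.05 to 0.05 for p53 targets. The mitochondrial ribosomal RNA mt-Rnr2 stood at 29714, 35976 and 33229 CPM against 28971, 45979 and 51879 CPM (-0.38 ± 0.26).

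Of 71 replication-dependent histone genes, 68 were tested with a median of 0.04. Their extremes were genes with identical or nearly identical copies, between which the counts can be split in different ways. Hist2h2aa2 stood at 397, 327 and 377 CPM against 0, 122 and 253 CPM (lowest, median and highest), above every naïve library, with a log2 fold change of 1.62 ± 0.94. Its copy Hist2h2aa1 stood at 515, 619 and 819.6 CPM against 711 to 1135 CPM, in the opposite direction. Hist1h2bq had -1.54 ± 0.66.

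Markers of blood, marrow and vessels were close between the groups. Of 14 erythroid markers, 13 were found in the annotation and tested, 11 were above 0 (median 0.10), and 1, Ermap, an erythrocyte membrane gene, was higher at an unadjusted p of 0.05, beside 0.956% of all genes (178, 197 and 218 CPM against 116, 156 and 189.7 CPM, 0.36 ± 0.16). The median was -0.06 over 16 neutrophil and marrow myeloid markers, -0.03 over 14 macrophage, 0.01 over 12 B cell, -0.10 over 12 endothelial, 0.19 over 10 T and NK cell, -0.24 over 10 osteoclast, -0.15 over 12 synovial fibroblast and -0.28 over 10 growth plate and hypertrophic chondrocyte markers. Several of these moved with single libraries. The growth plate median was -0.14 without naïve library 3, and the synovial fibroblast median was -0.06 without naïve library 4. Without contralateral library 2 and naïve library 6 together, they were -0.39 and -0.24. Over the 20 alternatives the median ranged from -0.16 to 0.01 for neutrophil, -0.12 to 0.09 for macrophage, -0.06 to 0.12 for B cell, -0.15 to -0.03 for endothelial, 0.13 to 0.31 for T and NK cell and -0.32 to -0.11 for osteoclast markers. Spp1, which encodes osteopontin, stood at 602, 666 and 819.8 CPM against 619.6, 740.4 and 964 CPM. Cfd, an adipocyte serine protease gene, stood at 184, 267 and 122 CPM against 108, 224 and 422 CPM. Among 8 markers of Schwann cells and nerve, 4 were above and 4 below 0 (median -0.06).

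**Figure D5:**
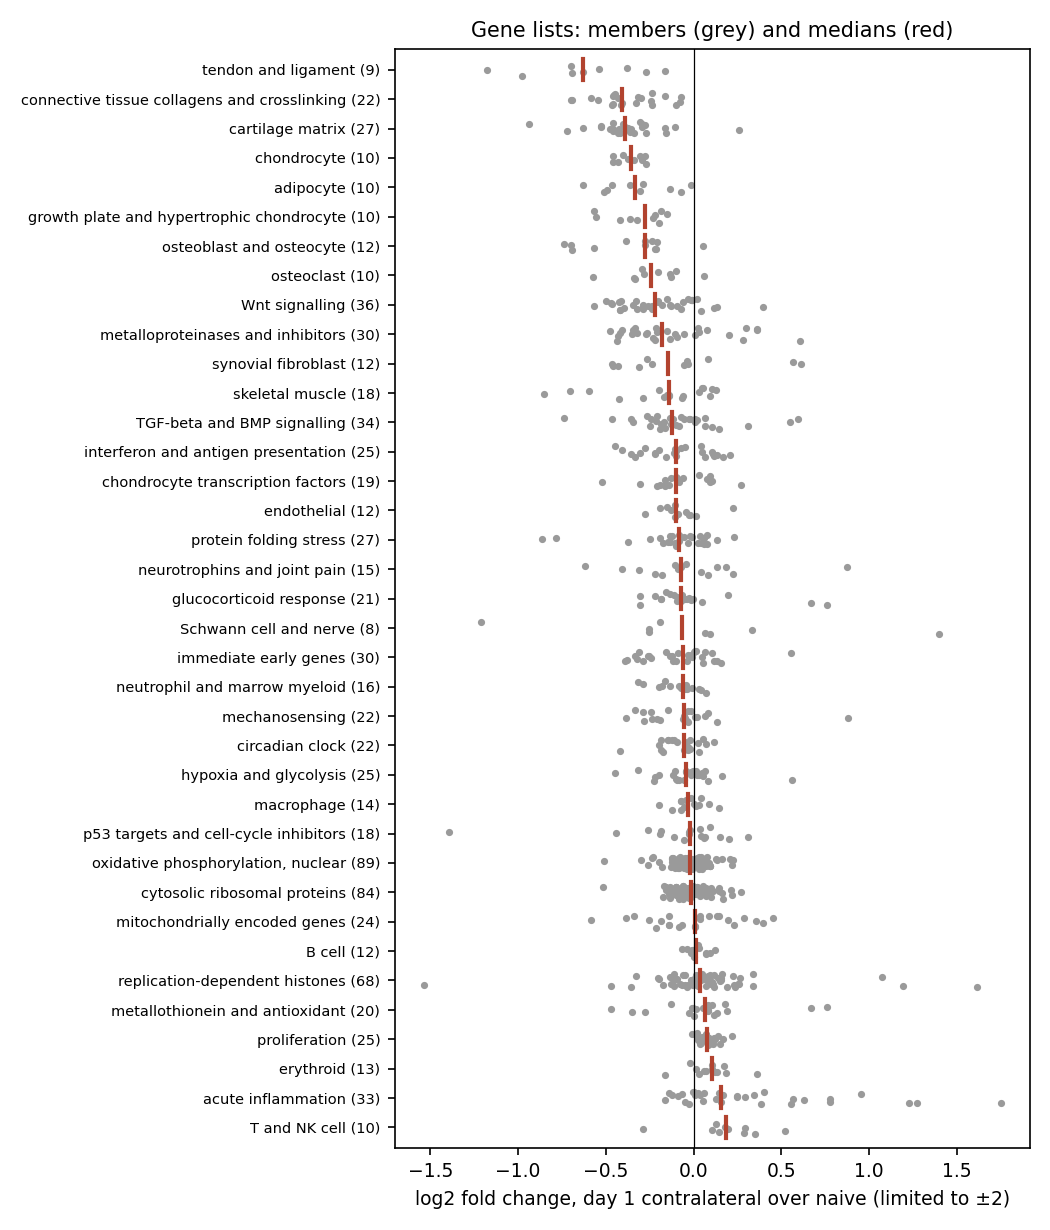
Log2 fold change of each tested member (grey points) and median (red bar) for 37 gene lists, with the number of members tested in brackets and values limited to ±2. Tendon, collagen and cartilage lists lie lowest, at -0.63, -0.41 and -0.39, and most other medians are within 0.3 of 0.

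The contralateral libraries were also set against the other knees of injured mice. Day 1 injured cartilage differed from day 1 contralateral cartilage in 0 called genes, with 1383 of 21129 genes at an unadjusted p of 0.05 and a lowest FDR of 0.755 (edgeR). DESeq2 also called 0, with a lowest FDR of 0.0533 among the 1057 genes to which it gave one. Day 1 injured and naïve cartilage, in the same fit and with the same naïve libraries, gave 0 called genes, 959 at an unadjusted p of 0.05 and a lowest FDR of 0.165.

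Day 1 and day 7 contralateral cartilage differed in 4 of 21262 genes (0.0188%), all at an FDR of 0.0457 (edgeR, 18 libraries). Ckb, which encodes the brain-type creatine kinase, stood at 49.9, 43.0 and 46.0 CPM at day 1 and at 136, 95.2 and 91.8 CPM at day 7, with a log2 difference of -1.21 ± 0.18. Naïve libraries lay between 48.0 and 76.5 CPM and overlapped the day 1 values. Bambi, which encodes a decoy receptor for TGF-β and BMP ligands, stood at 8.16, 7.91 and 8.93 CPM against 14.96, 14.4 and 16.1 CPM (-0.86 ± 0.14). C77080, a protein-coding gene, stood at 9.34, 8.54 and 9.53 CPM against 16.4, 14.8 and 17.1 CPM (-0.81 ± 0.13). Gm14567, a processed pseudogene, stood at 1.146, 0.993 and 1.05 CPM at day 1 and at no more than 0.135 CPM at day 7 (3.49 ± 0.56). Naïve libraries lay between the groups for Bambi (9.94 to 12.8 CPM) and Gm14567 (0.358 to 0.790 CPM) and overlapped day 1 for C77080. Day 7 contralateral library 1 stood apart, with 42.5% of its counts in the 10 genes with the highest counts and 16.97% in pseudogenes. All 4 calls were lost when any of the 6 contralateral libraries was left out, and DESeq2 called 81 genes.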

How the data were processed

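The authors trimmed the reads of stranded, ribosomal RNA-depleted total RNA libraries with Trimmomatic and quantified them per transcript with kallisto against the mouse GRCm38 transcriptome. The submitters' processing notes also name DESeq2 and a build, GRCh38, that is human, whereas the identifiers are mouse. The deposited estimated counts of 137436 transcripts were summed per gene (135107 transcripts, 98.3%, matched an annotation, giving 49184 genes) and rounded. The deposited TPM values and effective lengths, made by the authors with kallisto, served only an alternative with transcript length offsets. How the counting used strand is not given in the sources used here, so antisense transcripts such as Gm16299 cannot be told from the genes they overlap, and near-identical copies share reads.

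Genes were filtered with filterByExpr, scaled by TMM and tested in R 4.3.3 over 15 libraries with edgeR 4.0.16 (quasi-likelihood), without the day 7 contralateral group. All 18 were fitted for that group. P-values were adjusted by Benjamini-Hochberg over all genes, and a call needed an FDR of 0.05 or less and a ≥1.5-fold change. Log2 fold changes are contralateral minus naïve, ± SE, with 95% intervals. Each SE was the absolute log2 fold change divided by the square root of the quasi-likelihood F statistic. The intervals were built from it, so both restate the test. CPM is the usual count per unit of library total, with TMM-scaled totals, from the cpm function of edgeR. DESeq2 1.42.0 and limma-voom 3.58.1 were alternatives. Total counts per library limit counting error only. Principal components used all genes tested after variance stabilization, and single values were compared with 2-sided exact permutation tests. The computations were tested on simulated data.

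Genes were named by a rule: calls up to 10 in each direction, otherwise the lowest p-values at a mean of 1 CPM or more and 1.5-fold, the 2 most abundant members and the extremes of each list, and the 5 leading genes at each end of a component. Only part of those genes is described, and some are not reported here. The comparison and the 38 gene lists, cell type markers included, were chosen with earlier results of these data known. The study removed 1 ACL library for low mapping, which the labels do not name. The authors' own comparison tables were not used.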

Additional observations from a re-analysis of the deposited data

Results flagged for a closer look

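In 106 groups of naïve values checked with Dixon's test, 19 held a library far from the other 5, where chance flags about 1 in 20 groups. Many of these genes were named because they lead a component or a list, and they vary together, so the count cannot be read against that rate. Of these, 6 were in naïve library 5, which was the highest for Timp1 (96.5 CPM), Ccl7 (27.6 CPM), Chl1 (46.6 CPM), Mt2 (68.8 CPM), Il11 (3.27 CPM) and Fosl1 (1.27 CPM). Day 1 contralateral library 3 and day 1 injured library 2 had high values of the same genes, and the labels give no shared feature of these 3 libraries. All 3 day 7 injured libraries also had high Timp1 (60.6 to 85.6 CPM) and Chl1 (26.5 to 26.7 CPM) and low Cyp2e1 (9.45 to 14.7 CPM). Their chi-square per degree of freedom from contralateral library 3 was 213 to 299, above the 21.9 between contralateral library 3 and naïve library 5. Whether they are labelled correctly was not tested, and if a label were wrong the contralateral and naïve values would not be those of their groups.

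Naïve library 6 stood apart for Tgtp2 (143 CPM), Ifi44 (39.9 CPM) and the summed T and NK cell markers (81.2 CPM). Naïve library 4 had the highest Col8a2 (26.7 CPM), Kera (20.9 CPM) and Dkk2 (6.69 CPM). Naïve library 3 had the highest Col2a1 (5053 CPM), summed chondrocyte markers (7681 CPM) and summed chondrocyte transcription factors (1257 CPM). Naïve library 1 had the highest Gm16299 (2.497 CPM) and Gm28265 (1.65 CPM) and the lowest summed protein folding stress genes (3264 CPM). Naïve library 2 had the fewest genes over 3 counts (20834).

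The contralateral difference from naïve cartilage differed between day 1 and day 7 for 4 genes by edgeR's test of the difference between the contralateral groups, since the same naïve libraries serve both. The log2 difference was -1.21 for Ckb, -0.86 for Bambi, -0.81 for C77080 and 3.49 for Gm14567 (adjusted p = 0.0457 for each). The calls were lost without any 1 of the 6 contralateral libraries.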

How the results depend on the processing

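Under 20 alternative settings the count of called genes between day 1 contralateral and naïve cartilage was 0 in each direction except with the DESeq2 Wald test, which called 1 higher and 1 lower. Settings that left out several libraries together, or gave list medians, were chosen after seeing the data. The 554 genes at an unadjusted p of 0.05 were 1014 without a filter on low counts, where 35963 genes were tested. They were 888 without contralateral library 3, naïve library 5 and injured library 2. In the other direction, they were 399 with all 18 libraries and 438 without naïve library 4. Between day 1 and day 7 contralateral cartilage, the 4 calls were 81 with DESeq2 and 0 (lowest) to 0 (highest) when a replicate was left out. Components were refitted to each set of libraries and oriented by Timp1 or Ifit1, so their axes differ and signs need not refer to the same quantity. The first component difference was -6.61 over 15 libraries and ranged from -3.44 to 14.03 when single replicates were left out, and the second from -15.5 to 4.86. Differences in percent of counts unmatched ranged from -0.257 to 0.268 and in percent noncoding from -0.213 to 0.328 on leaving out replicates. Of 58 genes, 14 changed direction in 35 of 1094 values. When single replicates were left out, log2 fold changes ranged from -1.84 to 1.95 for Timp1, -2.86 to 2.502 for Ccl7, -1.99 to 1.97 for Chl1, -1.24 to 1.70 for Mt2, -1.28 to 2.96 for Il11, -3.57 to 2.39 for Fosl1, -2.05 to 1.57 for Ankrd1, -0.44 to 0.53 for Prg4, -0.19 to 0.016 for S100a8, -1.06 to 0.10 for Cyp2e1, -2.10 to 0.19 for Ifit1, -2.24 to 0.048 for Ifit3, -2.498 to 0.59 for Ifi44 and -1.95 to 0.64 for Tgtp2. Without contralateral library 3 and naïve library 5 they were -0.50 for Timp1, -0.65 for Ccl7, -0.79 for Chl1, -0.30 for Mt2, -0.072 for Il11, -1.74 for Fosl1, -1.36 for Ankrd1, -0.18 for Prg4, 0.12 for Ifit1, 0.014 for Ifit3 and 0.37 for Ifi44. Tgtp2 was at -1.36 without contralateral library 2 and naïve library 6 and at -0.54 with limma-voom. The cause of these changes was not tested. No paired analysis was made because the labels do not tie libraries to mice. The study's methods report that limma's duplicateCorrelation accounted for samples of the same pool of mice, and no such fit was made here.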
